A study of Mus musculus with 71 samples.

Results

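The regions described here are 529 distal H3K27me3 peaks of wild-type (WT) mouse embryonic stem cells (mESCs) that were listed again in mESCs lacking 3 linker histone genes, H1c, H1d and H1e (the H1-TKO cells). They were selected on measured values: a WT peak narrower than 2000 bp on an assembled chromosome, with its centre more than 10 kb from every annotated transcription start, and overlapped by at least 1 bp by an H1-TKO peak. Of the 6957 WT peaks, 6789 lay on assembled chromosomes and 1474 of these were narrow and distal. An H1-TKO peak overlapped 529 of the 1474, or 35.9%, against 54.9% of all WT peaks on assembled chromosomes, and since this overlap is the rule itself both shares are given as background and not as a result. The other 945 narrow distal WT peaks, which had no H1-TKO peak, are called WT-only distal peaks and serve as the main comparison.

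Both genotypes were of the R1 mESC line grown with LIF, and the H1-TKO cells came from a CRISPR/Cas9 knockout from which single-cell clones were picked. Other H1 variants remain in the H1-TKO cells, so that H1 is depleted in part and not absent. The labels name a pair of H3K27me3 replicates per genotype. The lists used here are replicate 1 of each, and replicate 2 was not analysed here, so no difference between lists has a replicate check, and every interval below covers counting error only. The lists give a place and a score for each peak, which is 10 times the negative log10 of the peak caller's p-value, and hold no reads, so the depth behind a peak is unknown. H3K27me3 is the mark that Polycomb repressive complex 2 (PRC2) places on histone H3, and in mESCs it is best known at the CpG islands of silent developmental genes. Linker histone H1 binds nucleosomes at the entry and exit of DNA and compacts chromatin. Away from genes, a narrow peak can also come from a stretch of DNA whose reads cannot be placed well, such as a repeat, and the features below describe the sequence of each peak with that in view.

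Of the 10 highest WT scores, 3 belonged to members of a family of 14 with a shared sequence, 3 to members of a second family, and 4 to members of neither. The following 60-base stretches come from 5 members of the family of 14, which align with each other, and they are shown because the highest-scored peak of all, on chromosome 9, belongs to it. The build is NCBIM37 (mm9), minus-strand stretches are given as the reverse complement, and capitals mark bases that differ from the first stretch.
chr9:35112925-35112984 (plus strand): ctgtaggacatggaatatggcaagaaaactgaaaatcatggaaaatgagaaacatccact
chr12:3109963-3110022 (plus strand): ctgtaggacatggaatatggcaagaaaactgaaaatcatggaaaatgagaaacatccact
chr13:77578206-77578265 (minus strand): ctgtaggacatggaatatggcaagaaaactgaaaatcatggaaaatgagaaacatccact
chr12:75905228-75905287 (minus strand): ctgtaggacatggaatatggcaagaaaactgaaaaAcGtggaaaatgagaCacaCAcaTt
chr11:3000431-3000490 (minus strand): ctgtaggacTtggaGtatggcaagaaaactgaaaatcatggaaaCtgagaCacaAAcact
The stretches on chromosomes 12 and 13 that follow the first were identical to it over all 60 bases, and the last pair differed from it at 6 of 60 bases each. As background, AT-rich letters of this kind are known from the mouse major satellite, the tandem repeat of pericentromeric heterochromatin. No repeat annotation was used here, and the match to a named repeat was not tested.

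A smaller family of 4 peaks, each on another chromosome, is shown in the same way, again with capitals for bases that differ from its first stretch, because 3 of the 4 were among the 10 highest WT scores.
chr9:24346463-24346522 (plus strand): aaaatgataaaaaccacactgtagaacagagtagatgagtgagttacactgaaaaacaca
chr6:103599174-103599233 (minus strand): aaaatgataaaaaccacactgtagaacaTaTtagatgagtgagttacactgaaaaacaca
chr4:64158893-64158952 (minus strand): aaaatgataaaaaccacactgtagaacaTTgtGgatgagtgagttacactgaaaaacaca
chrX:139917604-139917663 (minus strand): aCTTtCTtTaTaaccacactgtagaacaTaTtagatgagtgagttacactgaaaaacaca
Between 51 and 58 of the 60 bases of the other stretches equalled the first, and most differences of the stretch on chromosome X lay near its 5′ end.

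A further pair is shown for its many CpG, which are in capitals, followed by a member with few. The first lies in a coding exon of Asb18 near the homeobox gene Gbx2 and had the highest ratio of observed to expected CpG among members of 200 bp or more. The second, on chromosome 6, had the highest ratio of all, and all of its bases aligned elsewhere. The third, on chromosome 15 near 4933412E24Rik, is shown as the highest-scored member without an aligned copy.
chr1:91865048-91865347 (plus strand): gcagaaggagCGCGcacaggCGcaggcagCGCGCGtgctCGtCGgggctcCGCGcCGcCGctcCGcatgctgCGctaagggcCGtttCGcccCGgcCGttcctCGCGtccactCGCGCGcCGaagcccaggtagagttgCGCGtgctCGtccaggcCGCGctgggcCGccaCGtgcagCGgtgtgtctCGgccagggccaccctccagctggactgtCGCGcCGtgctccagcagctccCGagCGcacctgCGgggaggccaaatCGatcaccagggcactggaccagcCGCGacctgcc
chr6:3151462-3151576 (plus strand): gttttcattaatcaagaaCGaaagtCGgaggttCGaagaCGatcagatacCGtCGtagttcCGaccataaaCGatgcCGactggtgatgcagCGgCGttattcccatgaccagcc
chr15:59973306-59973605 (plus strand): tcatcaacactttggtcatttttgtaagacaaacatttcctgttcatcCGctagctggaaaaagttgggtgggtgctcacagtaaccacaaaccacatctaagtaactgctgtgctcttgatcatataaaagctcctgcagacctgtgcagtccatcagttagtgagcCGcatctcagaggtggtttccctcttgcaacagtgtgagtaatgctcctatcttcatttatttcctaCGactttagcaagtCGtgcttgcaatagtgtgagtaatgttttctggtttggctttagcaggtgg
The window at Asb18 held 42 CpG in 300 bases, and the chromosome 15 window held 4. The chromosome 6 stretch held 11 CpG in its 115 bases. Its letters resemble those known from the 18S ribosomal RNA gene, whose many copies lie largely outside the assembled chromosomes. No ribosomal RNA sequence was used here, so this was not tested.

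The median width of the 529 peaks was 551 bp (quartiles 320 to 951), against 225 bp for the WT-only distal peaks. Their median WT score was 94.5 (quartiles 68.2 to 156) against 57.0 for WT-only distal peaks. The median H1-TKO score was 95.2 (quartiles 69.0 to 157). Width, distance and overlap chose these peaks, so the values are a description. At the width limit the widest members measured 1985 and 1984 bp, the second near Grip2, and the first kept distal peaks beyond it measured 2005 and 2036 bp. At the distance limit the nearest members lay 10008 bp and more from a start, among them 1 at Zfhx3 and 1 at 10038 bp from Nkx1-1, both homeobox genes, and the first excluded kept peaks lay 9908 and 9863 bp from a start, near St6galnac1 and Siglec15. The H1-TKO peak with the lowest score over a member, 50, stood at the lowest score of its list and overlapped a WT peak of 51.0 near Galnt7.

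Most members lay outside genes. By its centre, 345 of the 529 (65.2%, 95% Clopper-Pearson interval 61.0 to 69.3) lay between genes, 108 (20.4%, 17.1 to 24.1) in introns, 63 (11.9%, 9.27 to 15) in coding exons, 9 in UTRs and 4 in non-coding exons. Between genes lay 665 of the 945 WT-only distal peaks (70.4%, 67.3 to 73.3), an interval that overlaps that of the kept peaks. Over all WT peaks on assembled chromosomes, 1054 of 6789 lay in coding exons (15.5%, 14.7 to 16.4). That share is higher than the 11.9% of the kept distal peaks, with overlapping intervals. Coding exons held 38 of the 945 WT-only distal peaks (4.02%, 2.86 to 5.48), an interval that does not reach that of the kept peaks. The same held for peaks with a WT score under 100, where coding exons held 28 of 288 kept peaks (9.72%, 6.56 to 13.7) and 32 of 893 WT-only peaks (3.58%, 2.46 to 5.02). At a score of 100 or more the shares were 14.5% of 241 (10.3 to 19.6) and 11.5% of 52 (4.35 to 23.4), and the intervals overlapped. The median distance to a transcription start was 26972 bp for kept and 34748 bp for WT-only distal peaks. More than 100 kb from every start lay 64 of the 529 (12.1%, 9.44 to 15.2) and 159 of the 945 (16.8%, 14.5 to 19.4).

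Chromosomes 1 and 8 held the most members, 72 and 52, and chromosome X held 8. Per 10 Mb this gave 3.65 on chromosome 1, 3.95 on chromosome 8, 3.59 on chromosome 19, 3.09 on chromosome 15 and 0.480 on chromosome X. Chromosome 8 also held the most narrow distal WT peaks, 182, of which 28.6% (22.1 to 35.7) were kept, and chromosome 1 held 166, of which 43.4% (35.7 to 51.3) were kept. Over all WT peaks the order was the same, with 49.2% overlapped on chromosome 8 and 65.0% on chromosome 1, which held 548 WT and 622 H1-TKO peaks in all. The kept share ran from 20.9% on chromosome 16 to 8 of 16 peaks on chromosome X, with wide intervals on both. The peak lists alone do not show whether chromosome copy number differs, and its part in these counts was not tested. The densest 10-Mb stretches held 11 members each, from 110 to 120 Mb of chromosome 8 and from 160 to 170 Mb of chromosome 2, and 7 of the 11 on chromosome 2 were island-like as defined below.

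**Figure D1:**
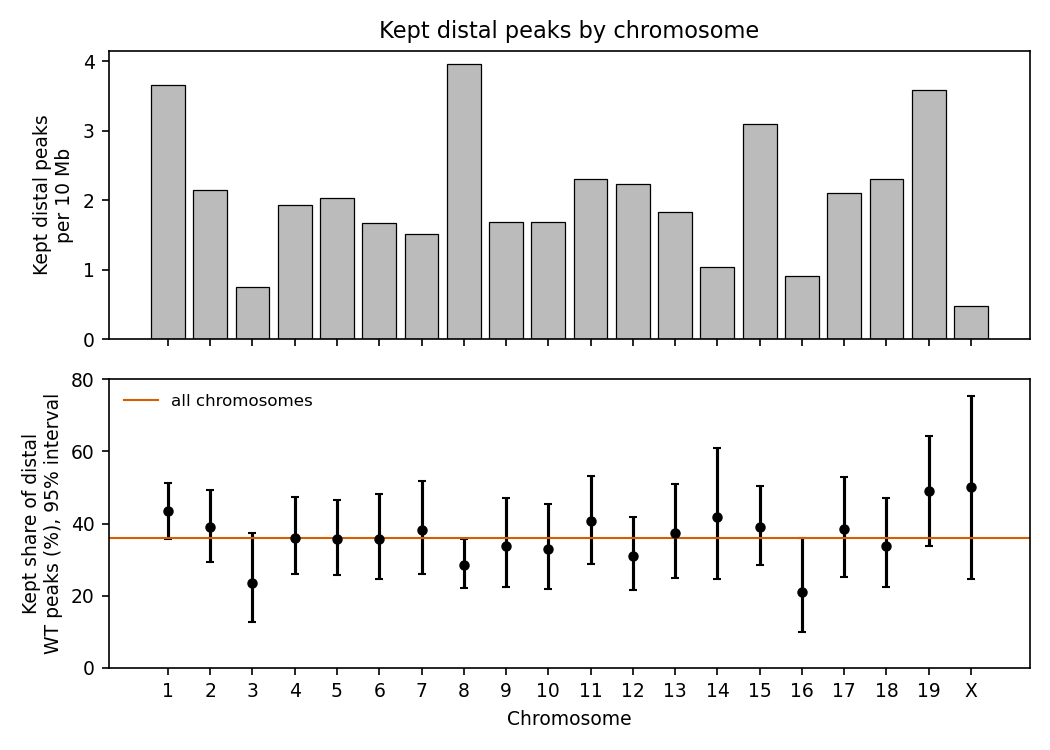
Kept distal H3K27me3 peaks per 10 Mb of each chromosome (top, bars) and the share of narrow distal WT peaks that an H1-TKO peak overlapped (bottom, points with 95% Clopper-Pearson intervals and a line at 35.9%, the share over all chromosomes). Chromosomes 1, 8, 15 and 19 had more than 3 kept peaks per 10 Mb, while the kept share on most chromosomes had an interval that held the line.

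The 8 members on chromosome X stood apart from the rest in score and width. Their median WT score was 502 and their median width 232 bp. Among them were the member of the 4-peak family near Pak3, a pair in Mid1, 1 member in Apool and 1 in Il1rapl1. The Il1rapl1 peak was 89 bp wide with a GC content of 73.0%, and scored 425 in WT and 345 in H1-TKO mESCs.

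Members often came in groups. With a limit of 50 kb between neighbouring centres, 223 of the 529 (42.2%, 37.9 to 46.5) had another member as a neighbour, forming 97 clusters, and 175 (33.1%) had one within 2 kb. Among WT-only distal peaks 167 of 945 (17.7%, 15.3 to 20.3) had another such peak within 50 kb. A single H1-TKO peak over neighbouring narrow distal WT peaks makes all of them members at once. The rule itself thus enters the shares of kept peaks with a neighbour, and its part was not tested. Of the clusters, 79 were pairs, 12 held 3 members, 4 held 4, and there was 1 each of 6 and 7. Clustered members had a median WT score of 91.1 and single members 95.7, with median widths of 546 and 555 bp. Island-like were 22.4% (17.1 to 28.5) and 22.2% (17.7 to 27.3) of them, and an assembly gap lay within 50 kb of 7.62% (4.50 to 11.9) and 2.61% (1.14 to 5.09). Another WT peak of any kind lay within 5 kb of 255 kept peaks (48.2%, 43.9 to 52.6) and of 169 WT-only distal peaks (17.9%, 15.5 to 20.5). Broad peaks were rarely close: 53 kept peaks (10.0%, 7.60 to 12.9) and 69 WT-only distal peaks (7.30%, 5.73 to 9.15) lay within 50 kb of a WT peak of 2000 bp or more, with overlapping intervals.

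The largest clusters differed in kind. The 7 members near Polr3k and Gm14496 on chromosome 2 spanned 14010 bp, and their WT scores ran from 80.2 to 1468 and their H1-TKO scores from 71.6 to 974. The 6 members 4517 bp and more from an assembly gap on chromosome 18, nearest to the vomeronasal receptor gene Vmn1r238, spanned 8115 bp and scored from 65.8 to 515 in WT. In the cluster of 4 near Ly6c2 on chromosome 15, which spanned 1514 bp, 3 members were repeated in the sense given below. By contrast, no member was repeated in the 4 in Jph2, which encodes a junctophilin, and 3 of them were island-like. The 4 members nearest to Foxn3, a forkhead gene, were neither repeated nor island-like, and scored 61.1 to 71.4 in WT and 101.5 to 228.5 in H1-TKO.

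**Figure D2:**
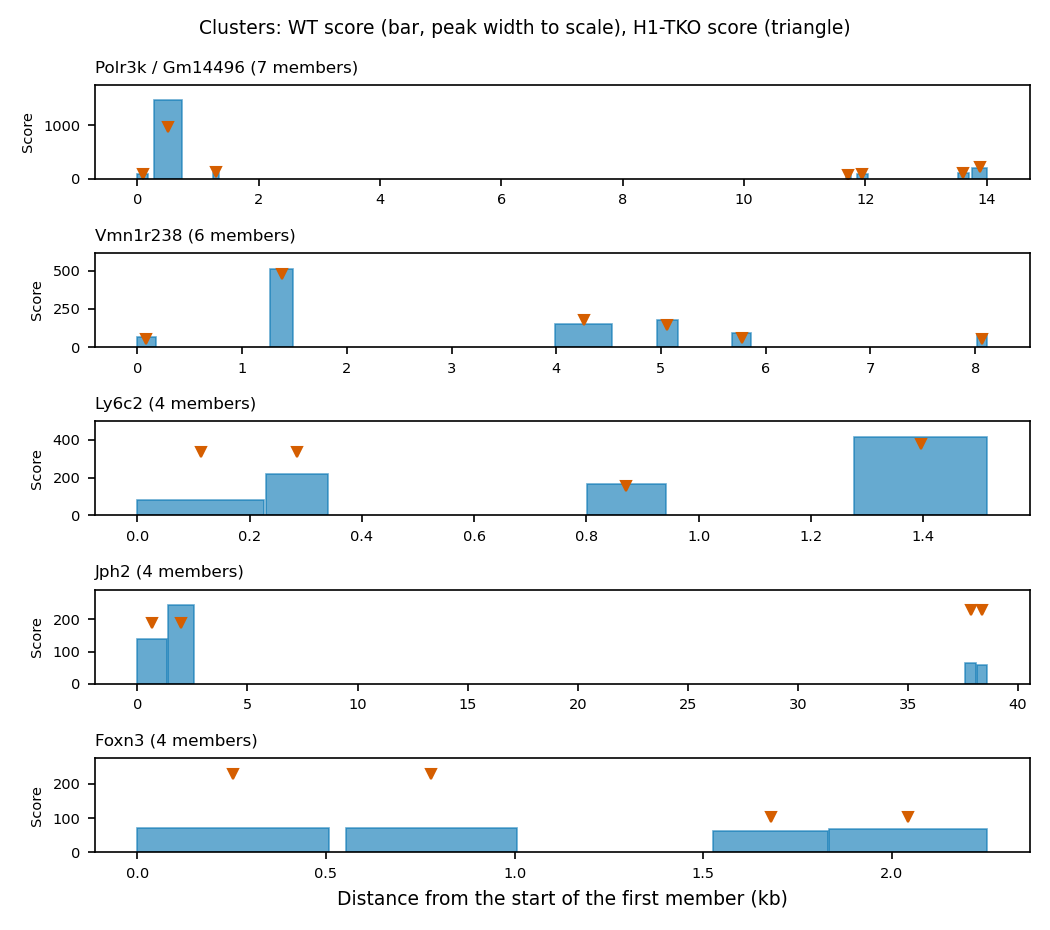
Clusters of 4 or more kept distal peaks near 5 of the loci described, by distance in kb from the start of the first member. Bars give WT scores with the peak width to scale and triangles give H1-TKO scores; 2 triangles at 1 height over neighbouring bars, as in Jph2 and Foxn3, are a single H1-TKO peak over both.

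Scores in the 2 genotypes were close at the centre of the distribution and scattered around it. The median ratio of the H1-TKO to the WT score was 0.996 (quartiles 0.741 to 1.34), and it ran from 0.238 to 6.90. The ratio compares p-value scores and not amounts of H3K27me3, which the paper reported as lower in H1-TKO mESCs. The score was higher in H1-TKO for 261 of the 529 (49.3%, 45 to 53.7). It was within 1.5 times of the WT score for 343 members (64.8%), at least 2 times higher in H1-TKO for 38 (7.18%) and at most 0.5 times as high for 30 (5.67%). Across the 529 peaks, Spearman's rho of the WT and H1-TKO scores was 0.560, given as a description since each axis is 1 library. Ordered by WT score, the median ratio was 1.29 in the lowest of 5 equal groups and 0.792 in the highest. Ordered by H1-TKO score it was 0.776 in the lowest and 1.151 in the highest, so the direction depended on which list ordered the peaks. By chromosome the median ratio ran from 0.817 on chromosome 14 to 1.253 on chromosome 15, where 23 of 32 members scored higher in H1-TKO. On chromosome 1 it was 1.06 (43 of 72).

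**Figure D3:**
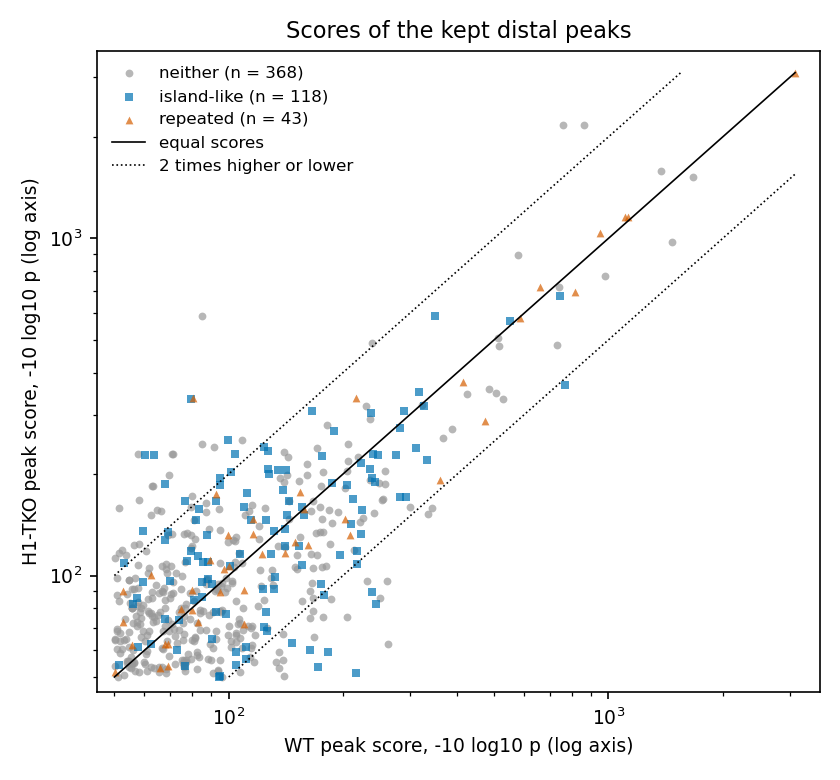
Score of each kept distal peak in WT (horizontal) and H1-TKO mESCs (vertical), both as 10 times the negative log10 of p, on log axes, for 43 repeated, 118 island-like and 368 other members. The peak at 3100 in both lists sits in the upper right corner and most points lie between the dotted lines at 2 times higher and lower.

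One list sometimes had a single peak where the other had several. Of the members, 403 (76.2%) paired with an H1-TKO peak one to one, 480 were overlapped by 1 H1-TKO peak, 48 by 2 and 1 by more. The H1-TKO peaks numbered 533, and covered a median of 86.3% of the WT peak. An H1-TKO peak shared with another WT peak was found for 95 members (18.0%, 14.8 to 21.5), but for 24 of the 38 members that scored at least 2 times higher in H1-TKO (63.2%, 46.0 to 78.2). The highest ratio, 6.90, was of this kind: in Eftud1 on chromosome 7 a WT peak of 85.3 and its neighbour of 350 were both overlapped by an H1-TKO peak of 588. In Jph2, WT peaks of 63.7 and 60.1 shared an H1-TKO peak of 228. Among one-to-one members the ratio reached at most 3.08, and 14 of 403 (3.47%) were at least 2 times higher in H1-TKO.

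The lowest ratios were at wide peaks, most of them island-like as defined below. The score in Gm17719 near Eif3f was 216 for WT mESCs and 51.4 for the knockout. At 24150 bp from Zdbf2, an imprinted gene, it was 263 and 62.7, and in a coding exon of Adra1b, which encodes an adrenergic receptor, 172 and 53.7. A peak on chromosome 9 nearest to 4931429L15Rik scored 183 in WT and 59.5 in H1-TKO, and one nearest to Tbca scored 245 and 82.6. All 5 were between 784 and 1611 bp wide. Since the lowest H1-TKO score is 50, a ratio of 0.5 or less needs a WT score of 100 or more, which 241 members had, so that the 30 are 12.4% of those that could show it. Of the members called repeated below, 23 had such a WT score and none of the 23 was among the 30, where a count of 0 allows a share of up to 13%.

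Kept distal peaks were richer in GC and CpG than the other distal peaks and poorer than promoter peaks. Their median GC content was 52.1%, against 48.99% in WT-only distal peaks, 59.2% in the 1754 kept narrow peaks within 1 kb of a start, and 40.7% in 1856 windows of 600 bp taken at 1-Mb steps along the genome. The median ratio of observed to expected CpG was 0.357, 0.235, 0.601 and 0.145 in the same order. A peak of at least 200 bp with a GC content above 50% and a CpG ratio above 0.6 is called island-like. Island-like were 118 of the 529 kept distal peaks (22.3%, 18.8 to 26.1), 50 of the 945 WT-only distal peaks (5.29%, 3.95 to 6.92), 831 of the 1754 promoter peaks (47.4%, 45 to 49.7) and 2 of the 1856 windows (0.108%). Over all WT peaks on assembled chromosomes, 1776 of 6789 were island-like (26.2%, 25.1 to 27.2), an interval that overlaps that of the kept distal peaks. Their median GC content was 53.6% and their median CpG ratio 0.426, both above the kept distal peaks. Width enters this class, since 478 of the kept (90.4%) but 554 of the WT-only distal peaks (58.6%) were 200 bp or wider. Among those of 200 bp or wider, 24.7% (20.9 to 28.8) of kept and 9.03% (6.77 to 11.7) of WT-only distal peaks were island-like. Within the central 300 bp of each peak, 23.1% (19.5 to 26.9) and 5.93% (4.51 to 7.63) passed the GC and CpG limits, and the median CpG ratios were 0.299 and 0.233. Island-like members were wider than the others, with a median of 797 bp, and 38 of the 118 (32.2%, 23.9 to 41.4) lay in a coding exon. Their median H1-TKO to WT ratio was 1.02.

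The score moved with these differences. The kept share of narrow distal WT peaks was 17.7% (15.3 to 20.2) at scores of 50 to 75, 75.1% (68.6 to 80.9) at 100 to 200 and 98.4% (91.2 to 100) at 200 to 400, and all 27 peaks at 400 or more were kept (87.2 to 100). At WT scores of 100 to 200, 46 of 154 kept peaks (29.9%, 22.8 to 37.8) and 12 of 51 WT-only peaks (23.5%) were island-like. At scores under 100 the shares were 42 of 288 (14.6%, 10.7 to 19.2) and 38 of 893 (4.26%, 3.03 to 5.79). The part of the score in the CpG difference was not tested further.

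From 200 to 400 the members were wide and often island-like, and above that they were mostly short and present elsewhere in the genome. A base counts as copied here where another place in the genome aligned to it over 50 bases or more at 80% identity or higher. Between 200 and 400 the median width was 1112 bp, 27 of 60 members (45%, 32.1 to 58.4) were island-like, and 16 (26.7%, 16.1 to 39.7) had another copy for 50% or more of their bases. At 400 or more the median width was 275 bp, 3 of 27 (11.1%, 2.35 to 29.2) were island-like and 18 (66.7%, 46.0 to 83.5) had such copies. Below 200 the share with copies stayed between 12.4% and 18.8%.

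**Figure D4:**
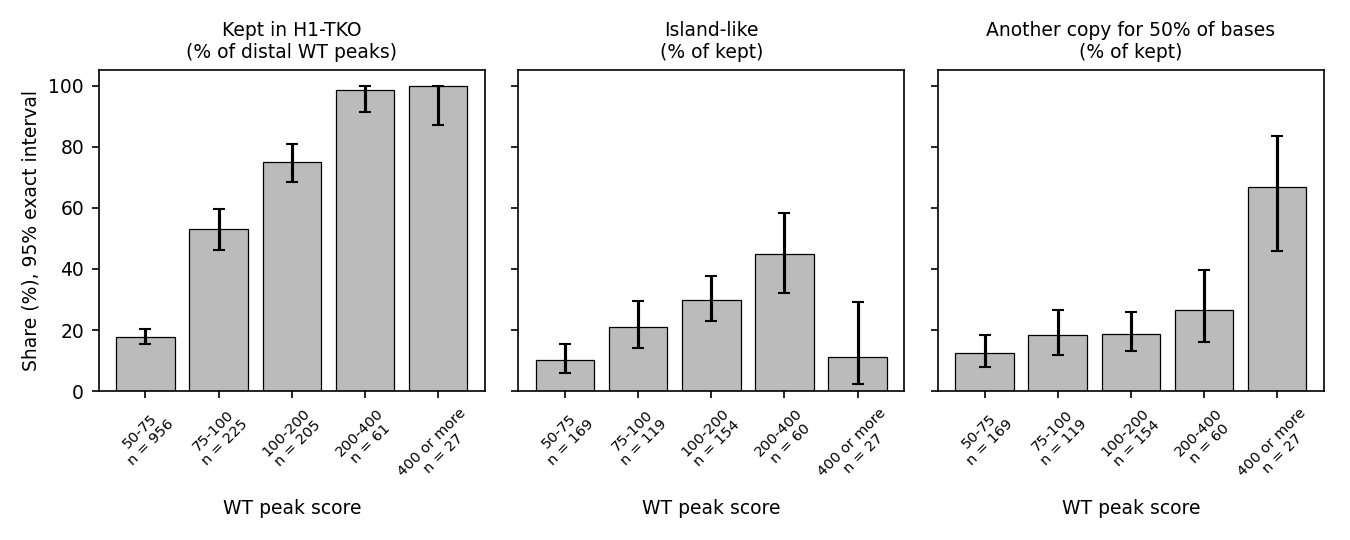
Share of narrow distal WT peaks kept in H1-TKO (left), and share of the kept peaks that were island-like (middle) or had another copy for at least 50% of their bases (right), by WT score, with 95% Clopper-Pearson intervals. The kept share reaches 100% at 400 or more, where the island-like share is 11.1% and the copied share 66.7%.

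Coding exons held 15 of the 60 members scored 200 to 400 (25%, 14.7 to 37.9). In order of WT score the first 6 of the 15 are given here, chosen after their values were seen. Zc3h12d, a zinc-finger gene, held a peak of 367 in WT and 255.9 in H1-TKO, and Fbxo41, an F-box protein gene, one of 311 and 238. Chst5, a sulfotransferase gene, held one of 293 and 171, and Agap2, which encodes an Arf GTPase-activating protein, one of 289 and 307. Kcnk3, a potassium channel gene, had 283 and 170, and Klhl31, a kelch-like gene, 282 and 274. The score was higher in H1-TKO for Agap2 alone of these 6. The highest-scored single-copy island-like member lay in an intron of Agap1 on chromosome 1, was 1791 bp wide and scored 551 in WT and 567 in H1-TKO. Near Pcgf5, which encodes a Polycomb ring finger protein, a peak of 79.4 in WT and 119 in H1-TKO held 176 CpG in 1349 bp.

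Genes of developmental families were the host or nearest protein-coding gene of 40 members (7.56%, 5.46 to 10.2), against 60 of the 945 WT-only distal peaks (6.35%, 4.88 to 8.10). The list of families holds homeobox, Sox, Fox, Tbx, Gata, Pax, Wnt, Fgf and Bmp genes, which were 324 of 22225 annotated protein-coding genes (1.46%), although genes with long flanks are nearer to more distal sequence. Homeobox genes stood nearest to 17 members (3.21%, 1.88 to 5.10) and to 30 WT-only distal peaks (3.17%, 2.15 to 4.50). Among Pax genes, Pax2 had 3 members between 11994 and 81327 bp from its start, with WT scores of 111, 147 and 51.7 and H1-TKO scores of 61.2, 63.2 and 63.8. In the forkhead gene Foxo6, a pair of neighbouring members in coding sequence scored 135 and 141 in WT and shared an H1-TKO peak of 205. Members of 136 and 88.4 in WT that lay 74381 and 75191 bp from Sox17, an endoderm regulator, scored 59.1 and 97.8 in H1-TKO. Wnt3a held an intronic member of 125 in WT and 78.0 in H1-TKO. Tbx, Gata and Bmp genes were the host or nearest gene of no member, and neither were olfactory receptor genes, where a count of 0 allows a share of up to 0.567%, and 11 WT-only distal peaks lay nearest to a T-box gene. Of the annotated genes, 0.0720% are Tbx, 0.0270% Gata and 0.0540% Bmp genes, all under that limit, and 5.01% are olfactory receptor genes. Numbered Zfp genes stood nearest to 15 members (2.84%, 1.6 to 4.63) and vomeronasal receptor genes to 8 (1.51%, 0.655 to 2.96), of which 6 were the chromosome 18 cluster. Numbered Zfp genes are 1.65% of the annotated genes, inside that interval. Vomeronasal receptor genes are 1.47% of them, close to their share of the members.

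Copies in the genome set a minority of members apart. Of the 529, 314 (59.4%, 55 to 63.6) had no aligned copy, against 708 of 945 WT-only distal peaks (74.9%, 72 to 77.7). Another copy for 50% or more of the bases was found for 106 members (20.04%, 16.7 to 23.7) and 114 WT-only distal peaks (12.1%, 10.1 to 14.3). At a WT score of 100 or more, 49.4% of 241 kept peaks (42.9 to 55.9) and 61.5% of 52 WT-only peaks (47.0 to 74.7) had no copy. Copies for 50% or more of the bases were then found for 26.1% (20.7 to 32.2) and 11.5% (4.35 to 23.4). In both cases the intervals overlapped. Kept peaks were also wider, and the part of width in these shares was not tested. Where 10 or more other copies covered 50% or more of the bases a member is called repeated, and 43 were (8.13%, 5.94 to 10.8), against 46 WT-only distal peaks (4.87%, 3.59 to 6.44), so that these intervals overlapped. The median width of repeated members was 225 bp and their median GC content 41.1%, and none was island-like. Spearman's rho of their WT and H1-TKO scores was 0.878, and 0.525 for the other 486, given as a description. The score was within 1.5 times in 34 of the 43 (79.1%, 64.0 to 90.0) and in 309 of the 486 (63.6%, 59.1 to 67.9), with overlapping intervals. A copy on an unplaced contig was found for 30 of the 43 (69.8%, 53.9 to 82.8) and for 38 of the 486 (7.82%, 5.59 to 10.6).

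The family of 14 shown above lay on 8 chromosomes, and 13 of its members were repeated. Their GC content ran from 34.9% to 44.1% and their CpG ratio from 0.233 to 0.933. Its WT scores ran from 50.1 to 3100 and its H1-TKO scores from 51.9 to 3100, and the ratio ran from 0.532 to 1.32 with a median of 0.999. The chromosome 9 member reached 3100 in both lists, the highest value of either list, which 3 peaks reached in each. The second member shown, on chromosome 12, 109854 bp from an assembly gap, scored 1106 in WT and 1160 in H1-TKO, and the one on chromosome 13 scored 662 and 719. The 3 members at the start of chromosome 11, nearest to Sfi1 and between 425 and 1698 bp from a gap, scored 161, 74.7 and 203 in WT and 123, 79.3 and 147 in H1-TKO. A pair in an intron of Mdga2 scored 99.7 and 50.1 in WT and 132 and 51.9 in H1-TKO. With 500 bp added on both sides, 9 of the 14 matched themselves best at a shift of 116 to 118 bp, with 30.1% to 52.3% of bases identical, against a median best match of 29.4% over all shifts from 100 to 400 bp and a highest of 53.4% in the 503 members that shared no sequence with another. The range of 116 to 118 bp was set from the commonest shift of the family itself, and none of the 14 reached a 60% match.

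The family of 4 scored 149, 815, 1123 and 949 in WT and 125, 693, 1161 and 1036 in H1-TKO, on chromosomes 4, 6, 9 and X. The chromosome 6 member lay in an intron of Chl1, a cell adhesion gene, and the X member 35489 bp from Pak3. All 4 were repeated. The remaining 8 members that aligned with each other formed 4 pairs.

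Short reads could nevertheless be placed in most members, as the authors' use of uniquely mapped reads requires. All 50-base windows occurred at a single place in the genome in 494 of the 529 (93.4%, 90.9 to 95.3), against 939 of 945 WT-only distal peaks (99.4%, 98.6 to 99.8) and 1218 of 1856 genome windows (65.6%, 63.4 to 67.8). Under 90% of windows were single in 11 members (2.08%, 1.04 to 3.69), and 8 of these were repeated. The lowest shares were 39.8% in the second member shown, on chromosome 12, 55% in the chromosome 13 member, 57.9% in a member of the Polr3k and Gm14496 cluster, 67.5% in Chl1 and 72.5% in a member 18 bp from an assembly gap on chromosome 17. With 24-base windows all were single in 46.3% of members. Assembly gaps lay within 50 kb of 25 members (4.73%, 3.08 to 6.90), 16 WT-only distal peaks (1.69%, 0.971 to 2.73) and 29 genome windows (1.56%, 1.05 to 2.24). Of the 25, 10 were repeated. At a WT score of 100 or more, 13 of 241 members (5.39%, 2.90 to 9.05) lay that close to a gap. Of the 52 WT-only distal peaks with such a score 0 did (0 to 6.85), and the intervals overlapped. Low-complexity sequence made up more than 20% of the bases in 21 members (3.97%, 2.47 to 6.00), 11 WT-only distal peaks (1.16%, 0.582 to 2.07) and 152 windows (8.19%, 6.98 to 9.53). No member aligned to the mitochondrial genome, which allows a share of up to 0.567%.

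Some of the highest scores stood at sequence with no or few copies in the assembly. The peak on chromosome 15 nearest to 4933412E24Rik scored 1377 in WT and 1587 in H1-TKO over 334 bp, without an aligned copy. The chromosome 6 member shown above, whose 115 bp aligned elsewhere at 93.9% identity, scored 730 in WT and 483 in H1-TKO. A member near the end of chromosome 1, nearest to Cr2, scored 770 in WT and 368 in H1-TKO and aligned elsewhere over 75.5% of its bases. Copies that the assembly lacks cannot be counted from it, and their part in these scores was not tested.

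Peaks over coding exons, chosen after their values were seen, were present in Rnf2, which encodes the ubiquitin ligase RING1B of Polycomb repressive complex 1. Its 2 members lay over coding exons of 172 and 161 bp on chromosome 1, scored 58.2 and 58.2 in WT and 124 and 78.2 in H1-TKO, and had GC contents of 38.1% and 37.6%. The WT peak at the first started 51 bp inside the exon and ran 60 bp past it, and the one at the second reached 40 bp before and 41 bp past its exon. A further WT peak of 79.9, with no H1-TKO peak, ran from 6 bp before to 1 bp past an 87-bp coding exon. The 2 lists held no other peak in the gene, which has 6 coding stretches over 31418 bp. Rnf2 had 1609.97 to 1930.35 normalized counts of RNA in the 4 libraries. Whether these peaks came from genomic chromatin or from other DNA was not tested.

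RNA levels were read as the mean of 4 RNA-seq libraries, without a comparison of genotypes, because the sample labels and the column names in the tables give them opposite genotypes. By label, H1f2 (H1c) had 18.7 and 7.4 normalized counts in the WT and 11.6 and 56.7 in the H1-TKO libraries, and H1f3 and H1f4 stayed at 41.4 or below in all 4. Of the stem cell markers Pou5f1, Sox2, Zfp42, Klf4, Tdgf1 and Dppa5a had from 673 to 14435 normalized counts for their highest accession, whereas Nanog was listed at 0 and Esrrb at 3.3 or below, and both have several accessions. The fibroblast markers Col1a1, Col1a2, Col3a1 and Thy1 ranged from 2.2 to 511. Only genes with a single accession were used further.

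Genes that held a kept distal peak had a lower median RNA level than other long genes, with wide spread. Of 140 protein-coding host genes, 92 had a single accession that could be matched, and their median level was 33.1 normalized counts (quartiles 5.03 to 178), against 142 (7.24 to 659) in 9089 protein-coding genes longer than 10 kb. Under 10 normalized counts were 35 of the 92 (38.0%, 28.1 to 48.8), against 27.2% (26.3 to 28.1) of the longer genes, and these intervals touched at 28.1%. Under 1 were 6 of the 92 (6.52%, 2.43 to 13.7), against 11.1% (10.5 to 11.8). Host genes of WT-only distal peaks had a median of 19.1 normalized counts, with 61 of 148 under 10 (41.2%, 33.2 to 49.6). Asb18 was listed at 0 in all 4 libraries. Klhl31 had 0 to 3.31 normalized counts, Kcnk3 0.78 to 7.37, Il10ra 0 to 4.41 and Foxo6 24.8 to 91.5. Cdk5rap2, which holds the member with the second highest score, had 811 to 1358, and Fat1, a large cadherin gene with an intronic member of 60.5 in WT and 58.5 in H1-TKO, had 2871 to 11318. Bulk RNA does not tell fewer expressing cells from less RNA per cell.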

How the data were processed

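H3K27me3 ChIP-seq of WT and H1-TKO mESCs was read from 1 deposited peak list per genotype (replicate 1). The authors aligned reads to mm9 with bowtie2, removed PCR duplicates, kept uniquely mapped reads and called peaks with MACS. They also normalized reads with a fly reference, and whether this entered the peak scores is not stated. Whether an input was used is not given in the sources used here. The score the authors deposited is the negative log10 of the p-value from MACS times 10. For RNA-seq the authors deposited a normalized count per accession (featureCounts counts divided by a DESeq2 size factor), used here as a signal level over all 4 libraries. Of 34010 accessions, 33650 matched a symbol in a RefSeq table (GRCm38.p6, names only), where an older symbol counted only if no gene bears it now.

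Centres were placed in GENCODE M1 on NCBIM37, the same build as mm9, with a host gene being protein-coding where possible. Windows of 50 bases were counted on both strands of the genome. Copies were aligned with BLAST 2.17.0 (megablast, word size 16, low-complexity filter off, E-value 1e-05). Shares carry exact Clopper-Pearson intervals, and no test was made between lists of 1 library each. Overlaps, distances and counts of exact 50-base windows recovered what simulated data held, and the BLAST copies had no such check. Members named follow a rule: the 10 highest WT scores, the 5 highest and lowest ratios, the 5 least unique and 5 most CpG-rich, the largest clusters, those nearest each limit, and gene families by symbol; further ones were named after their values were seen. The members and lists were chosen with earlier results of these data known. A few members are not reported here. Alternatives were other limits, windows and subsets. The scripts ran in Python 3.11.15 with numba 0.67.0, scipy 1.17.1, pandas 2.3.3, matplotlib 3.10.9 and numpy 2.4.6.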

Additional observations from a re-analysis of the deposited data

Results flagged for a closer look

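Peaks outside the assembled chromosomes were left out of the 529, and a signal shared by both lists was present there. Of 168 WT peaks on unplaced or random contigs and the mitochondrial genome, 125 (74.4%, 95% Clopper-Pearson interval 67.1 to 80.8) were overlapped by one of 155 H1-TKO peaks, against 54.9% of WT peaks on assembled chromosomes. The unplaced contigs held 150 of the 168, with 112 overlapped, and their median WT score was 104 with a highest of 3100. All 7 WT peaks on the mitochondrial genome were overlapped. No control sample was used here to set a background level.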

How the results depend on the processing

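No paired analysis was possible because 1 peak list per genotype was used and RNA was used as a mean over 4 libraries. Of 35 alternatives, 19 stayed within 1.5 times of a count or inside the 95% interval of a share or median, and 16 did not. The number of members was 347 at 20 kb and 152 at 50 kb from a start, and 169 with both scores of at least 100. The intronic share was 16.3% and the exonic share 19.9% by any base of the peak. The share with a neighbour was 48.96% within 200 kb and 70.9% among all WT peaks. The median ratio was 0.967 with both scores of at least 100. Members with all windows single were 79.96% at 36 bases, 46.3% at 24 bases and 53.1% with 500 bp added on both sides. The CpG ratio was 0.299 in the central 300 bp. Repeated members were 20.04% when 1 other copy counted and 13.6% when 20% of bases sufficed, and island-like ones 33.7% with both scores of at least 100. Host genes under 10 normalized counts were 38.04% (the share under 1 was 6.52%, or 5.43% to 9.78% without replicate 2 or 1). The 24-base windows, the repeated and island-like classes with their alternatives and the ratios without repeated members (0.995) or chromosome 1 (0.985) were chosen after seeing the data. A share of annotated repeats was not run, because the genome used marks none. Peak lists without reads cannot show a lower signal inside a kept peak, and peaks near the score limit of 50 may be listed in 1 list by a small difference.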
